A study of Mus musculus with 10 samples.

Results

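The 9 mouse genes described here are the endogenous 17-beta hydroxysteroid dehydrogenases Hsd17b1, Hsd17b2, Hsd17b4, Hsd17b7, Hsd17b10, Hsd17b11, Hsd17b12, Hsd17b13 and Hsd17b14. They were taken by name from the 29268 genes of a uterine RNA-seq table, and all 9 were found in it. The choice was made with earlier results of these data known. The uteri came from 5 HSD17B1TG and 5 WT female mice of the FVB/N strain at the age of 4 months. HSD17B1TG mice carry a human HSD17B1 cDNA under a chicken beta actin promoter with a CMV enhancer, which is active in nearly every cell type, and the human transgene is not counted among the 9 genes. The line is kept heterozygous, with WT mothers. The transgenic females do not cycle, and for its histology the study states that WT uteri were collected at any phase of the cycle, so genotype and loss of the cycle cannot be told apart here. The mice are called TG1 to TG5 and WT1 to WT5, with 1 library per mouse.

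17-beta hydroxysteroid dehydrogenases move hydrogen to or from the carbon atom at position 17 of a steroid, and so switch estrogens and androgens between their active and less active forms. HSD17B1 turns estrone into estradiol, and HSD17B2 turns estradiol back into estrone and is known as the enzyme that inactivates estradiol in the uterine epithelium. Most members of the family belong to the short-chain dehydrogenases, and several have their main work outside steroid metabolism. HSD17B7 acts in cholesterol synthesis, HSD17B12 in the elongation of fatty acids, HSD17B4 in the breakdown of fatty acids in peroxisomes, HSD17B10 in mitochondria, and HSD17B11 and HSD17B13 sit on lipid droplets.

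The family relation can be read in the stretch that codes for the active site. Short-chain dehydrogenases hold there a tyrosine, followed after 3 other residues by a lysine, with a serine 12 or 13 residues before the tyrosine. Each of the 9 coding sequences held this pattern once, and 10.2% of 21866 protein-coding mouse genes held it at least once. The 27 bases around the tyrosine and the lysine, without the serine, which lies upstream, are shown for the pair that works in opposite directions on estrogens, from GENCODE M21 (GRCm38), 5′ to 3′ along the gene's strand, with the tyrosine and the lysine codon in capitals.
Hsd17b1: gaagtgTACtgtgccagcAAGtttgcg
Hsd17b2: tcagctTATgcagccacaAAGgcagct
The Hsd17b1 stretch lies in exon 4 of 6 (chr11:101079203-101079229, plus strand) and that of Hsd17b2 in exon 4 of 5 (chr8:117753209-117753235, plus strand). Hsd17b11 and Hsd17b13, the pair on lipid droplets, lie 12351 bases apart on chromosome 5, and their proteins are identical in 64.4% of aligned residues. In the other 35 pairs of members this identity lay between 22.1% and 34.3%. No pair of the 36 shared a run of 31 bases in the main transcripts, which limits the reads that could have been counted for a relative.

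Levels are given as FPKM, the fragments per kilobase of gene, scaled for depth, which can be compared between mice. Between genes the comparison is approximate, because the gene length used exceeded the main transcript in every member but Hsd17b1 (1339 bases). It was 3265 against 1825 bases for Hsd17b11 and 1924 against 1320 for Hsd17b2. In the WT uterus the highest means were those of Hsd17b11 (50.4 ± 26.2 FPKM, SD, n = 5) and Hsd17b10 (48.4 ± 8.27). Hsd17b12 (27.4 ± 5.93) and Hsd17b4 (25.7 ± 3.27) followed, then Hsd17b7 (2.24 ± 1.13), Hsd17b2 (2.002 ± 3.62), Hsd17b1 (0.918 ± 0.375), Hsd17b14 (0.227 ± 0.108) and Hsd17b13 (0.0463 ± 0.0366). In the HSD17B1TG uterus the order was the same except that Hsd17b2 (14.6 ± 7.61 FPKM) stood above Hsd17b7 (2.05 ± 1.60). The place of Hsd17b2 above Hsd17b1 in WT rested on WT4, a mouse with 8.43 FPKM of Hsd17b2. Without it the WT means were 0.395 FPKM for Hsd17b2 and 0.967 for Hsd17b1, and with it 2 of 5 WT mice had more Hsd17b2 than Hsd17b1.

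Many neighbours in this order overlapped. In WT, Hsd17b11 and Hsd17b10 overlapped and stood in the order of their means in 3 of 5 mice. Hsd17b12 overlapped Hsd17b4, and Hsd17b7, Hsd17b2 and Hsd17b1 overlapped in turn. The steps without overlap in WT were from Hsd17b10 to Hsd17b12, from Hsd17b4 to Hsd17b7, from Hsd17b1 to Hsd17b14 and from Hsd17b14 to Hsd17b13. In HSD17B1TG, Hsd17b11 lay above Hsd17b10 without overlap, with a lowest value of 63.0 FPKM against a highest of 44.7. Hsd17b10, Hsd17b12, Hsd17b4 and Hsd17b2 then overlapped in turn, and Hsd17b2 stood above Hsd17b7 in 5 of 5 mice without overlap. Hsd17b7 overlapped Hsd17b1, Hsd17b1 lay above Hsd17b14 without overlap, and Hsd17b14 overlapped Hsd17b13.

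**Figure D1:**
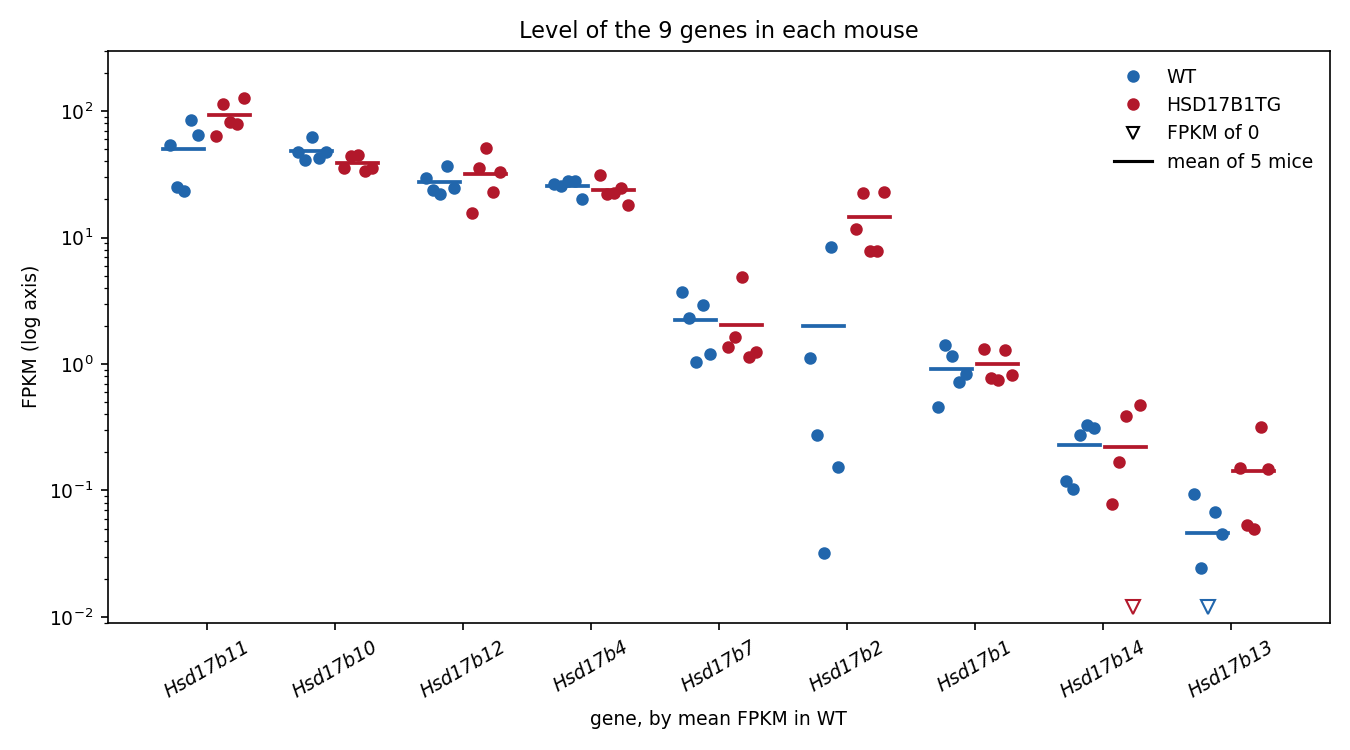
FPKM of the 9 genes on a log axis, ordered by their mean in WT. Each point is 1 mouse (WT blue, HSD17B1TG red), lines are means of 5 mice, and open triangles mark an FPKM of 0. In Hsd17b2 the WT mice spread from 0.0322 to 8.43 FPKM, and the HSD17B1TG mice lie between 7.83 and 23.0.

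Raw counts were compared between the groups with edgeR's quasi-likelihood test over 16993 genes. A gene was called when its adjusted p was under 0.05, its fold change over 2 and its mean FPKM over 1 in either group. Of the 9 genes, 8 passed the filter on low counts, and Hsd17b13 did not. None of the 8 was called, against 4.24% of all genes tested. That share itself depended on the mice, from 0.375% without TG5 to 8.96% without WT4. None passed the adjusted p alone either, which 6.16% of all genes did. An unadjusted p under 0.05 was reached by 3 of the 8, Hsd17b2, Hsd17b11 and Hsd17b10, against 26.1% of all genes. The FPKM of the groups overlapped in all 9 genes, while 6.69% of the genes tested had groups that did not overlap. DESeq2 also called none of the 9.

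WT4 stood apart from the other WT mice in Hsd17b2, and the level, fold change and call of that gene are given with and without it. Each mouse had 14817228 to 23271988 counts in all, so that 3 counts corresponded to 0.129 to 0.202 CPM, a limit that covers counting error only. The labels name no litter or batch of the mice, and p-values measure the spread between these 10 mice.

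Among the oxidative enzymes, Hsd17b2 (ENSMUSG00000031844, chromosome 8 from 117701904 to 117759027) showed the widest difference of the 8 genes tested. Its FPKM were 11.7, 22.4, 7.85, 7.83 and 23.0 in TG1 to TG5, and 1.12, 0.274, 0.0322, 8.43 and 0.152 in WT1 to WT5. All HSD17B1TG mice were at 7.83 FPKM or above, 4 WT mice were at 1.12 or below, and WT4 lay within the HSD17B1TG range. In counts, the lowest mouse had 1 and the highest 751. The log2 fold change was 2.86 (standard error 1.11), with an unadjusted p of 0.0261 and an adjusted p of 0.134 in edgeR. In the exact permutation test on log2(FPKM + 1), two-sided over every assignment of the 10 mice, p was 0.0238, which like every p of this test is not adjusted for the number of genes. DESeq2 gave a log2 fold change of 2.86 and an adjusted p of 0.0827.

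Without WT4 the groups of Hsd17b2 did not overlap, which follows from leaving out the WT mouse highest in it, and the mean FPKM of the 4 remaining WT mice was 0.395 ± 0.494 (SD). The log2 fold change was then 5.14 (standard error 0.84) and the gene was called up (adjusted p = 0.00659 in edgeR), in a fit that called 8.96% of all genes. Leaving out any other single mouse gave 2.52 to 3.02 and no call. Of the tests on all 10 mice, limma called Hsd17b2 in its 4 forms, where edgeR and DESeq2 did not call it. Its log2 difference was 4.65 with voom (limma, adjusted p = 0.0360), in a fit that called 3.41% of all genes, and voom with quality weights 5.33 (adjusted p = 0.00711) in a fit that called 10.3%. On log2(FPKM + 1) it was 2.83 (adjusted p = 0.0269 in limma, 3.79% of all genes called) and on log2(FPKM + 0.1) 4.30 (adjusted p = 0.0324, 4.78% called). Hsd17b2 overlaps the annotated genes Gm45776 on its own strand and Gm31774 on the other. Their highest FPKM in any mouse were 7.86 and 1.47, and the strand setting of the counting is not given in the sources used here.

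Hsd17b14 (ENSMUSG00000030825, chromosome 7 from 45554893 to 45567752), a cytosolic dehydrogenase that can oxidise estradiol, was near the detection limit in both groups. Its FPKM were 0.0787, 0.169, 0.390, 0 and 0.471 in TG1 to TG5, and 0.119, 0.103, 0.273, 0.331 and 0.310 in WT1 to WT5. The 5 WT mice lay within the range of the HSD17B1TG mice. The gene had 85 counts in all 10 mice together and at most 15 in a mouse. The difference was -0.04 on the log2 scale (standard error 0.75, with an adjusted p of 0.980 in edgeR). With this standard error, a small or moderate difference in either direction could have been missed.

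Among the reductive enzymes no member differed beyond the spread between mice. Endogenous Hsd17b1 (ENSMUSG00000019301, chromosome 11 from 101078411 to 101080527), the mouse counterpart of the transgene, was measured at 1.32, 0.773, 0.754, 1.30 and 0.816 FPKM in TG1 to TG5. It was at 0.456, 1.42, 1.16, 0.723 and 0.839 FPKM in WT1 to WT5. The highest and the lowest value were both those of WT mice. Counts lay between 15 and 36 per mouse, and the groups differed by 0.11 on the log2 scale (standard error 0.37, with an adjusted p of 0.879 in edgeR). Reads of the human transgene that mapped to the mouse gene would be counted here, and no rise of the mouse gene was detectable in the transgenic mice.

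The ratio of Hsd17b2 to Hsd17b1 in FPKM sets the enzyme that forms estrone beside the one that forms estradiol. It was 8.84, 29.0, 10.4, 6.04 and 28.2 in TG1 to TG5, and 2.46, 0.193, 0.0278, 11.7 and 0.182 in WT1 to WT5. All 5 HSD17B1TG mice had more Hsd17b2 than mouse Hsd17b1, as had WT1 and WT4, whereas WT2, WT3 and WT5 had less. The human transgene is not part of this ratio.

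Hsd17b7 (ENSMUSG00000026675, chromosome 1 from 169949535 to 169969241), a reductase of cholesterol synthesis that can also reduce estrone, was at 1.37, 1.63, 4.89, 1.13 and 1.23 FPKM in TG1 to TG5. In WT1 to WT5 it was at 3.71, 2.30, 1.04, 2.93 and 1.20. TG3 was the highest mouse, and the other 4 HSD17B1TG mice lay in the lower part of the WT range. The groups differed by -0.13 on the log2 scale (standard error 0.49, with an adjusted p of 0.891 in edgeR), and by -0.76 without TG3, still without a call.

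Hsd17b12 (ENSMUSG00000027195, chromosome 2 from 94032689 to 94157964), the ketoacyl reductase of fatty acid elongation, was at 15.6, 35.8, 51.4, 22.8 and 32.9 FPKM in TG1 to TG5. In WT1 to WT5 it was at 29.7, 23.8, 21.9, 36.7 and 24.8. The HSD17B1TG mice spread over 3.30-fold and the WT mice over 1.67-fold, with the WT mice inside the wider range. Hsd17b12 differed by 0.21 on the log2 scale (standard error 0.28, with an adjusted p of 0.688 in edgeR), and by -0.05 without TG3, the mouse highest in Hsd17b7 and Hsd17b12.

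The peroxisomal and the mitochondrial member varied least among mice. Hsd17b4 (ENSMUSG00000024507, chromosome 18 from 50128201 to 50196269), the D-bifunctional protein of peroxisomal beta-oxidation, was at 31.5, 22.1, 22.6, 24.5 and 17.97 FPKM in TG1 to TG5 and at 26.7, 25.8, 28.0, 27.9 and 20.1 in WT1 to WT5. All WT mice lay within the HSD17B1TG range. The difference on the log2 scale was -0.12 (standard error 0.16, with an adjusted p of 0.680 in edgeR). The pseudogene Cd63-ps, which reached 66.1 FPKM in a mouse, lies within Hsd17b4 on the same strand.

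Hsd17b10 (ENSMUSG00000025260, chromosome X from 152001845 to 152004442) breaks down isoleucine and is a subunit of mitochondrial RNase P, which cuts transfer RNAs out of mitochondrial transcripts. Its FPKM were 35.2, 44.2, 44.7, 33.6 and 35.4 in TG1 to TG5, and 47.8, 41.4, 62.3, 42.8 and 47.8 in WT1 to WT5. TG1, TG4 and TG5 lay below every WT mouse, and TG2 and TG3 lay within the WT range. Hsd17b10 differed by -0.33 on the log2 scale (standard error 0.15), with an unadjusted p of 0.0444 and an adjusted p of 0.180 in edgeR, and the exact permutation test gave p = 0.0476. With 1 mouse left out it stayed between -0.41 and -0.25, always without a call. Mitochondrially encoded genes took 5.74%, 1.94%, 2.49%, 6.87% and 7.57% of all counts in TG1 to TG5 and 2.58% to 3.37% in the WT mice. The 3 mice low in Hsd17b10 were thus those with the highest mitochondrial shares, and their part in the result was not tested.

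Of the lipid droplet enzymes, Hsd17b11 (ENSMUSG00000029311, chromosome 5 from 103989762 to 104021919) was the most abundant member of the family. Its FPKM were 63.0, 115, 81.6, 78.4 and 126 in TG1 to TG5, and 54.0, 25.2, 23.5, 84.9 and 64.3 in WT1 to WT5. TG2 and TG5 lay above every WT mouse, and WT4 lay above TG1, TG3 and TG4. Hsd17b11 was higher by 0.88 on the log2 scale (standard error 0.36), with an unadjusted p of 0.0329 and an adjusted p of 0.152 in edgeR. The exact permutation test gave p = 0.0556. Without WT4 the log2 fold change was 1.15 (adjusted p = 0.0551 in edgeR). Voom with quality weights gave 1.29 and called the gene at adjusted p = 0.0252 in limma, in a fit that called 10.3% of all genes. DESeq2 (adjusted p = 0.114) and voom (adjusted p = 0.116) did not call it. Nor did limma on log2(FPKM + 1) (adjusted p = 0.113) and on log2(FPKM + 0.1) (adjusted p = 0.111).

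Hsd17b13 (ENSMUSG00000034528, chromosome 5 from 103955440 to 103977410), known mainly from hepatocytes, had 37 counts in all 10 mice together. Its FPKM were 0.149, 0.0533, 0.0493, 0.316 and 0.149 in TG1 to TG5, and 0.0943, 0.0244, 0, 0.0673 and 0.0453 in WT1 to WT5. TG1, TG4 and TG5 lay above every WT mouse, with at most 11 counts in a mouse. The exact permutation test on log2(FPKM + 1) gave p = 0.0714, and without the filter on low counts edgeR gave a log2 fold change of 1.48 with an adjusted p of 0.349. Of 7 hepatocyte markers in the table, Alb, Apoa1, Tat and Apoh were under 1 FPKM in every mouse. Serpina1a, the only one tested, was at 6.24 to 27.8 FPKM in HSD17B1TG and 0.0287 to 3.75 in WT, without overlap (log2 fold change 3.82, adjusted p = 0.0506 in edgeR). Cyp2e1 reached 4.74 FPKM in a HSD17B1TG mouse, and Ttr reached 15.4 in a WT mouse and was at 0 in every HSD17B1TG mouse. Their part in the result was not tested.

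**Figure D2:**
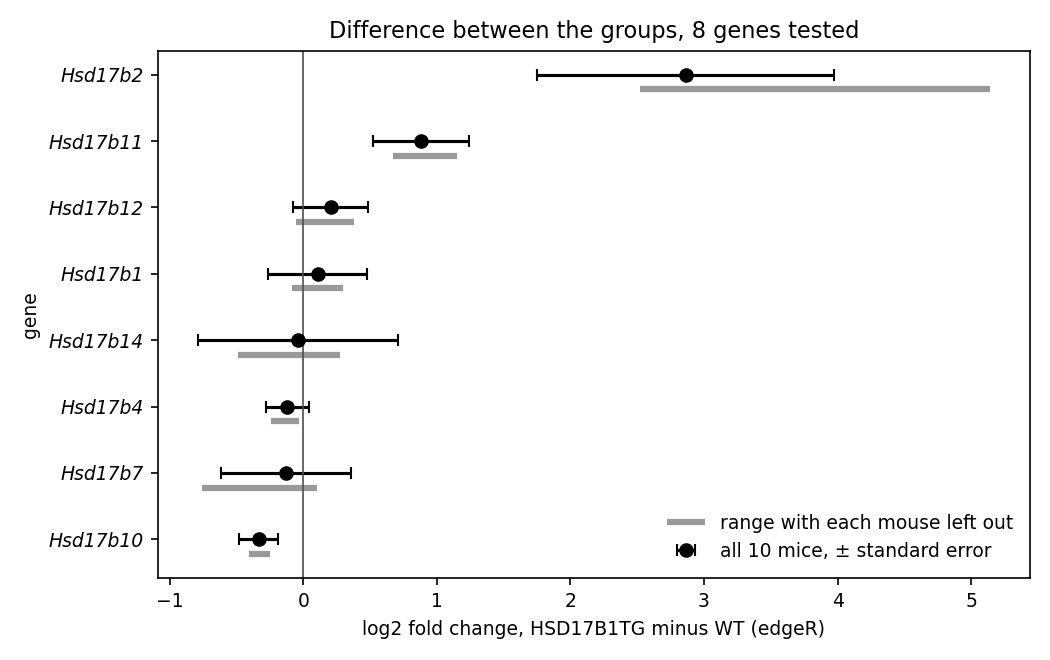
Log2 fold change of the 8 genes tested (HSD17B1TG minus WT, edgeR). Points and whiskers give the value of all 10 mice ± standard error, and grey bars the range over the 10 fits with 1 mouse left out. For Hsd17b2 the range runs from 2.52 to 5.14, and the ranges of Hsd17b1, Hsd17b7, Hsd17b12 and Hsd17b14 include 0.

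The sum of the 9 genes was 160 to 242 FPKM in the HSD17B1TG mice and 120 to 205 FPKM in the WT mice. Hsd17b11 made up 38.1% to 53.0% of this sum in HSD17B1TG and 17.0% to 41.5% in WT. Hsd17b10 made up 14.9% to 22.02% in HSD17B1TG and 20.9% to 45.1% in WT. Hsd17b2 made up 3.66% to 9.64% in HSD17B1TG, 4.12% in WT4 and at most 0.684% in the other WT mice. Hsd17b10 was the largest share in WT2 and WT3, and Hsd17b11 in the other 8 mice.

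**Figure D3:**
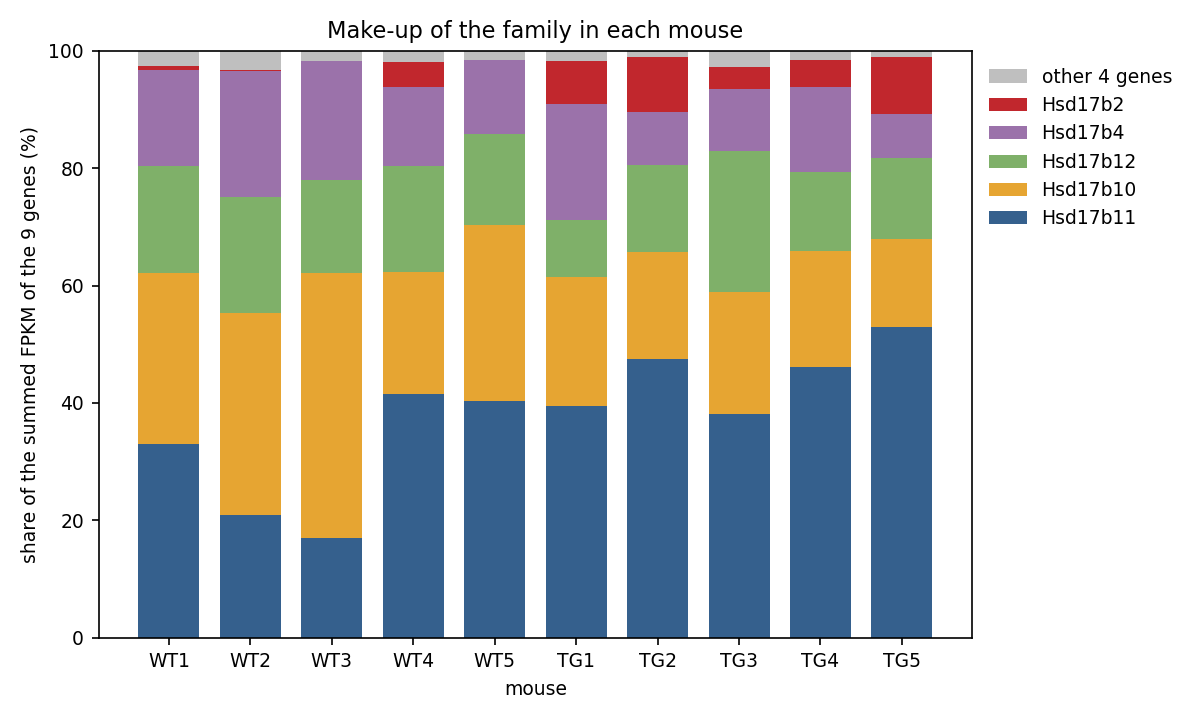
Share of each gene in the summed FPKM of the 9 genes, in percent, with 1 bar per mouse. The smallest 4 genes are drawn together in grey. Hsd17b2 (red) takes 3.66% or more in TG1 to TG5 and in WT4, and Hsd17b10 (yellow) is widest in WT3 with 45.1%.

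Markers of epithelium were compared with Hsd17b2 and Hsd17b11 mouse by mouse, and they ran together in part. The summed FPKM of 12 epithelial markers, among them Epcam, Cdh1 and the simple keratins, was 761, 2488, 2736, 2154 and 3567 in TG1 to TG5, and 1145, 859, 656, 1826 and 533 in WT1 to WT5. None of the 12 was called, their median log2 fold change was 1.24, and 10 of them were above 1 FPKM in every mouse. WT4, the WT mouse with the highest sum, was also the one with the highest Hsd17b2 and Hsd17b11. TG1 had a sum below those of WT1, WT2 and WT4 and 11.7 FPKM of Hsd17b2, and TG3 had the second highest sum with 7.85 FPKM, close to the lowest of the HSD17B1TG mice. WT5 had the lowest sum of all 10 mice and 64.3 FPKM of Hsd17b11, the second highest WT value and above TG1. In whole uterus, more cells of a type and more RNA per cell cannot be told apart.

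The members were also divided by this sum, a comparison chosen after the data were seen. The mean log2 of the sum was itself higher by 1.197 in HSD17B1TG (two-sided exact permutation test, p = 0.0556), so by construction the division lowered the difference of every gene by that amount, and it does not tell whether a member follows the epithelium. On log2(FPKM + 0.1), Hsd17b2 was higher in HSD17B1TG by 4.30 before and by 3.10 after the division (exact permutation p = 0.0238 for both), and without WT4 by 5.22 and by 3.77. Hsd17b11 was higher by 1.01 before (exact permutation p = 0.0556) and differed by -0.19 after it (exact permutation p = 0.643). Hsd17b10 differed by -0.32 before and by -1.52 after the division (exact permutation p = 0.0476 and p = 0.0238). The other 5 members tested differed by -1.42 to -1.05 after the division, against -0.23 to 0.15 before it. Their exact permutation p after the division were 0.0159 for Hsd17b12 and Hsd17b14, 0.0476 for Hsd17b7, 0.0635 for Hsd17b4 and 0.167 for Hsd17b1. Before it they lay between 0.444 and 0.714. The p after the division carry the difference in the sum as well, so they do not test the members alone.

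**Figure D4:**
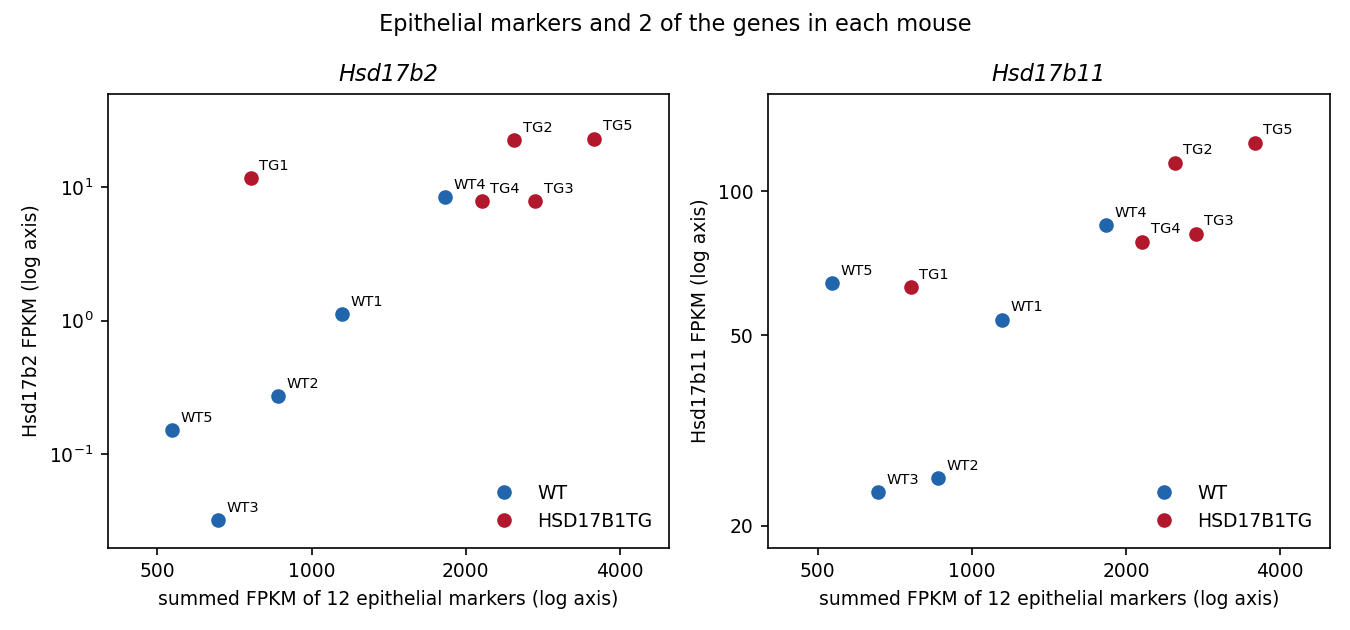
FPKM of Hsd17b2 (left) and Hsd17b11 (right) against the summed FPKM of 12 epithelial markers, both on log axes, with 1 labelled point per mouse. WT4 lies beside TG4, and TG1 has 11.7 FPKM of Hsd17b2 at a marker sum of 761.

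Other cell types were followed by their markers as well. The summed stromal markers lay between 578 and 2250 FPKM in HSD17B1TG and between 1947 and 2511 in WT, and 6 of the 10 were called down. Smooth muscle markers ranged from 875 to 7392 FPKM and from 412 to 5804, with none of 10 called. Endothelial markers ranged from 20.1 to 81.2 FPKM and from 51.4 to 119, with none of 8 called. Of 10 leucocyte markers, 3 were called up, Laptm5, Itgam and Cd68, with sums of 121 to 236 FPKM in HSD17B1TG and 92.9 to 144 in WT. The other 7, among them the pan-leucocyte marker Ptprc (means of 0.939 and 1.98 FPKM), had lower means in HSD17B1TG without a call, and the list median was -0.22 on the log2 scale. The ovarian granulosa and luteal markers Amh, Nr5a1, Lhcgr, Cyp11a1 and Hsd3b1 were under 1 FPKM in every mouse, and the sum of that list was 18.2 to 24.2 FPKM in HSD17B1TG and 29.7 to 59.2 in WT. Of its 4 genes tested, 1 was called, Foxl2, which fell from a mean of 31.2 to 6.59 FPKM (adjusted p = 0.0229 in edgeR). The lower sum in HSD17B1TG came from Foxl2. Inha and Star reached 11.3 and 10.4 FPKM in a mouse without a call. Their means were 6.14 and 7.08 FPKM in HSD17B1TG and 6.27 and 3.84 in WT. Oviduct markers summed to 13.2 to 19.8 FPKM and 11.9 to 13.9, and adipocyte markers to 6.74 to 135 FPKM and 1.88 to 30.9, in HSD17B1TG and WT. Hepatocyte markers summed to 6.27 to 27.8 FPKM and 0.659 to 15.5. The part of these cell types in the results was not tested.

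The other genes of the pathways that the 9 enzymes work in were grouped in 8 lists. Of their 131 genes tested, 7 were called up and 2 down, which is 6.87% against 4.24% of all genes, where 2.16% were called up and 2.08% down. The lists were chosen with earlier results of these data known, so these shares do not test the pathways. The median log2 fold change of all genes tested was 0.00. In sex steroid metabolism 3 of 16 genes were called, all up, with a list median of 0.61. Akr1c13 and Akr1c21, aldo-keto reductases that act on steroids, rose by 1.97 (standard error 0.43, adjusted p = 0.0322 in edgeR) and by 4.34 (standard error 0.97, adjusted p = 0.0343) on the log2 scale. The Akr1c genes are close paralogs, so reads may be split among them, and Akr1c21 reached only 1.45 ± 1.01 FPKM (SD, n = 5) in HSD17B1TG. Por, the reductase that feeds electrons to cytochrome P450 enzymes, rose from 27.4 ± 5.14 FPKM to 60.5 ± 22.9 (SD, n = 5 each; adjusted p = 0.0437 in edgeR), with TG1 at 25.6 FPKM within the WT range. This call was lost under 5 of 10 other settings with all mice, which were library totals alone, no filter, voom, log2(FPKM + 1) and log2(FPKM + 0.1).

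**Figure D5:**
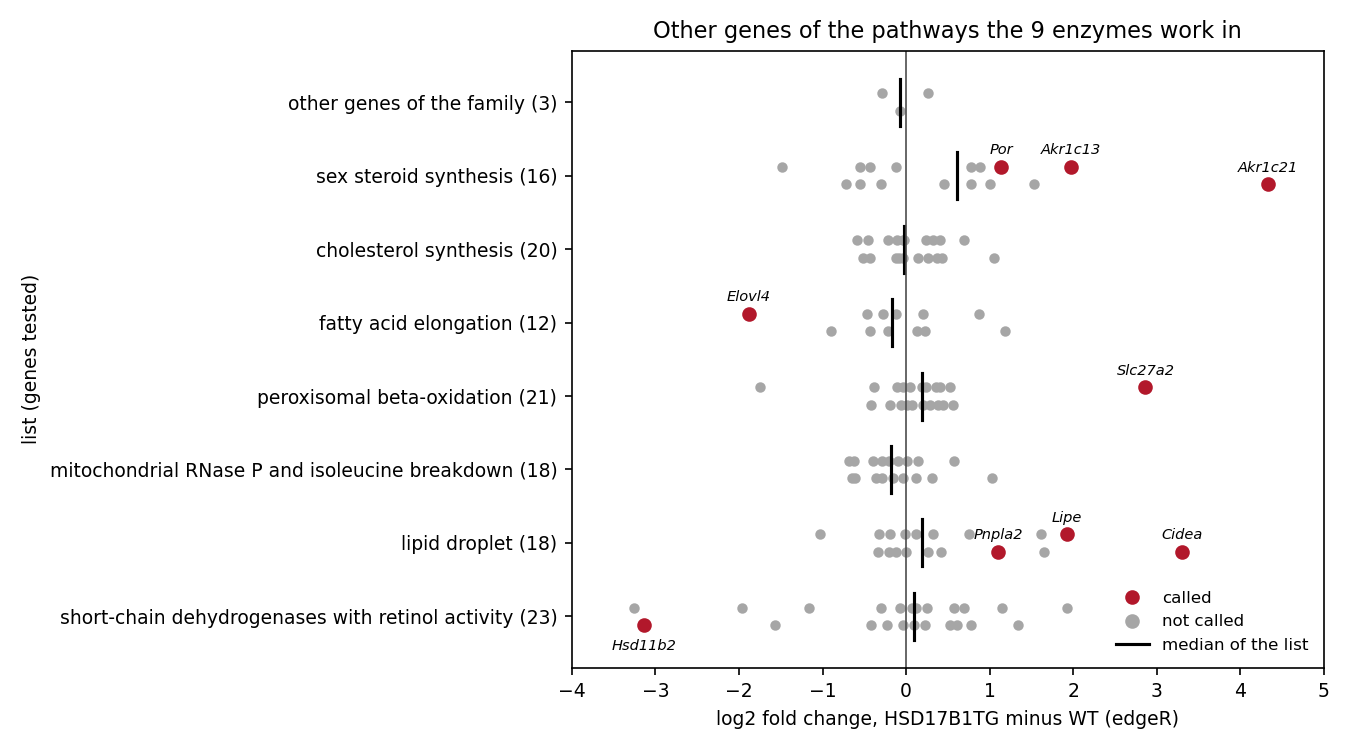
Log2 fold change (HSD17B1TG minus WT, edgeR) of the 131 pathway genes tested, in 8 lists with the number of genes tested in brackets. Red points are called genes, grey points genes not called, and black lines the list medians. Between 0 and 3 genes of a list were called.

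None of the 5 other genes that carry or carried a family name was called, and 3 of them, Rdh5, Hsdl1 and Hsdl2, were tested. The smallest p was that of Hsdl2, at 10.01 ± 2.37 FPKM in WT and 8.21 ± 1.08 in HSD17B1TG (SD, n = 5 each), with an adjusted p of 0.338 in edgeR. None of 20 genes of cholesterol synthesis, the pathway of Hsd17b7, was called, with a list median of -0.03. The smallest p there was that of Lbr, a sterol reductase of the nuclear envelope, at 10.7 ± 1.04 FPKM in WT and 7.13 ± 3.85 in HSD17B1TG (adjusted p = 0.204 in edgeR).

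In fatty acid elongation, the pathway of Hsd17b12, 1 of 12 genes was called and the list median was -0.17. Elovl4, which elongates very long chains, fell from 1.41 ± 0.561 FPKM to 0.383 ± 0.174 (SD, n = 5 each; log2 difference -1.88 with standard error 0.42, adjusted p = 0.0341 in edgeR). In peroxisomal beta-oxidation, the pathway of Hsd17b4, 1 of 21 genes was called, with a list median of 0.19. Slc27a2, which activates very long chain fatty acids, rose from 1.91 ± 0.7501 FPKM to 14.0 ± 7.91 (log2 difference 2.87 with standard error 0.44, adjusted p = 0.0177 in edgeR). It was the single one of the 9 called pathway genes that was called in each of the 10 fits with 1 mouse left out. Its WT mice reached 2.92 FPKM at most and its HSD17B1TG mice 6.49 at least.

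Around Hsd17b10, none of 18 genes of mitochondrial RNase P and isoleucine breakdown was called, with a list median of -0.18. An unadjusted p under 0.05 was reached by 6 genes of these 18 that were lower and 1 that was higher in HSD17B1TG, against 26.1% of all genes. In the list of peroxisomal beta-oxidation 7 of 21 were higher and 1 lower at that p, and in all 8 lists 26 of 131 were higher and 14 lower. Bckdhb, a subunit of the branched-chain ketoacid dehydrogenase, passed the adjusted p alone and missed the fold threshold. It was at 9.64 ± 1.498 FPKM in HSD17B1TG and 15.4 ± 2.60 in WT (SD, n = 5 each; log2 fold change -0.68, adjusted p = 0.0437 in edgeR).

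Among lipid droplet genes, the setting of Hsd17b11 and Hsd17b13, 3 of 18 were called, all up, and the list median was 0.19. Lipe and Pnpla2, the lipases that release fatty acids from stored fat, rose from 4.24 ± 0.975 to 16.1 ± 9.50 FPKM (adjusted p = 0.0234 in edgeR) and from 18.3 ± 4.63 to 39.3 ± 11.1 FPKM (adjusted p = 0.0277). Cidea, a protein that promotes the growth of lipid droplets, rose from 0.185 ± 0.182 to 1.90 ± 1.17 FPKM (SD, n = 5 each; adjusted p = 0.0322 in edgeR). The groups of these 3 genes did not overlap. The 8 adipocyte markers had higher means in HSD17B1TG as well, mostly through TG4, with a sum of 135 FPKM against 6.74 to 25.2 in the other HSD17B1TG mice and 1.88 to 30.9 in WT. Neither of the 2 that were tested, Lpl and Fabp4, was called. Without TG4, 3 of the 8 had a higher mean in HSD17B1TG than in WT, and that of Cfd was 3.17 FPKM in place of 17.0, against 2.76 in WT. The means of Lipe, Pnpla2 and Cidea in the 4 other HSD17B1TG mice were 17.1, 37.1 and 2.10 FPKM. Without TG4 Lipe was called, and Pnpla2 and Cidea were not. The part of adipocytes in the result was not tested.

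Of 23 other short-chain dehydrogenases, a list built around those with retinol activity, 1 was called, with a list median of 0.09. It was Hsd11b2, which acts on glucocorticoids and not on retinol. It fell from 430 ± 180 FPKM to 48.9 ± 44.5 (SD, n = 5 each; log2 difference -3.14 with standard error 0.64, adjusted p = 0.0268 in edgeR), and its WT mice, at 236 to 706 FPKM, did not overlap the HSD17B1TG mice, at 7.89 to 123. Of the 10 stromal markers, 6 were called down too. Of those not called, Col1a1, Col1a2 and Dcn had lower means in HSD17B1TG and Lum had a higher one. Their part in the result was not tested.

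The number of calls in these lists moved with that of the whole table when a mouse was left out. Without WT4, 14 pathway genes were called, which is 10.7% of those tested against 8.96% of all genes. Without TG2, TG4, TG5, WT1, WT2, WT3 or WT5 between 1 and 3 were called, 0.758% to 2.29% of those tested against 0.375% to 1.42% of all genes. All 9 called genes kept their direction in the 10 fits, and their log2 fold changes were 0.97 to 1.34 for Por, 0.97 to 1.20 for Pnpla2, 1.53 to 2.08 for Lipe, 1.68 to 2.14 for Akr1c13, 2.62 to 3.05 for Slc27a2, 2.87 to 3.94 for Cidea, 3.97 to 6.03 for Akr1c21, -2.11 to -1.71 for Elovl4 and -3.83 to -2.86 for Hsd11b2. Por was called in 2 of the 10 fits with 1 mouse left out, Akr1c13, Elovl4 and Cidea in 3, Akr1c21, Pnpla2 and Lipe in 4, and Hsd11b2 in 5. Under the other settings with all mice, Akr1c21 lost its call with the stricter filter, Elovl4 on log2(FPKM + 1) and Pnpla2 on library totals alone.

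For each member tested, the protein-coding genes whose log2 CPM varied most alike within the groups were listed, over 10 mice. In each mouse both values come from the same library. The genes were picked for the highest Pearson's r among all protein-coding genes tested, so r is raised by the selection itself. How high the top r would lie by chance was not tested. The r given with mice left out come from mice that served in the picking, so they are not an independent check. For Hsd17b2 the listed genes included Apobec2 (Pearson's r = 0.98, Spearman's rho = 0.95) and Fam3b. Both had r of 0.91 without WT3 and WT4, the mice farthest from the median. For Hsd17b11 the listed genes were Fam213a (r = 0.97, rho = 0.98), Ifne and Ppef2, and r was 0.96 to 0.97 without WT3 and WT4. For Hsd17b10 they were Fv1 (r = 0.92, rho = 0.78), Tmem94 and Gtf2h4, and r dropped to between 0.74 and 0.81 without TG2 and WT3.

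For Hsd17b12 the genes most alike were Gpkow (r = 0.98, rho = 0.99), Elovl1 and Tm7sf2, of which Elovl1 is an elongase of very long fatty acids and Tm7sf2 a sterol reductase. For Hsd17b7 they were Wdr36 (r = 0.97, rho = 0.94), Ddx1 and Bysl, and for Hsd17b4 Prag1 (r = 0.98, rho = 0.99), Draxin and Schip1. Without the 2 mice farthest from the median, r of these 9 genes lay between 0.89 and 0.98. For Hsd17b1 they were Zfp60 (r = 0.97, rho = 0.94), Adra1a and Lsm14b, and for Hsd17b14 Nadsyn1 (r = 0.93, rho = 0.85), Anapc10 and Cstf3, both over few counts of the member. Without TG4 and TG5, r of the genes alike to Hsd17b14 dropped to 0.84, 0.72 and 0.73, and without WT1 and WT2 r of those alike to Hsd17b1 was 0.88 to 0.95. None of the genes named for their likeness was called between the groups.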

How the data were processed

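Whole-uterus RNA was read from both ends over 150 bp. The authors used HISAT2 2.0.5 (per the submitters' processing notes) for mapping to the mouse genome and Ensembl 94 (GRCm38) as annotation. The authors deposited raw counts per gene and mouse, and FPKM that are scaled by a size factor of each mouse. The gene length in the deposited table was used as given. Program and strand setting of the counting were not given in the sources used here. The log2 fold changes and p-values of the authors' own comparison and further deposited tables were not used.

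The test on counts was that of edgeR 4.0.16 under R 4.3.3 (filterByExpr, TMM, quasi-likelihood test, Benjamini-Hochberg over 16993 genes), with the thresholds of the study's methods. No model had a covariate, as the labels give no batch or pairing. DESeq2 1.42.0, limma 3.58.1, other normalizations, filters and thresholds, and each mouse left out were alternatives. Scripts were tested on simulated counts. Single values were compared with the two-sided exact permutation test, whose smallest p is 0.00794. In 20 pairs of mice of a group, counts differed by at least 56.5 in chi-square per degree of freedom, so every mouse was counted as a separate sample. Named genes are the 9 members, every called gene of a list or, without one, the gene with the smallest p, and for likeness the 3 genes with the highest Pearson's r (log2 CPM, prior count 2), of which 1 is not reported here. Members and lists were chosen with earlier results of these data known. The coordinates of the 9 genes in GENCODE M21 equal those of the table. Proteins were translated from it and aligned with Biopython 1.88.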

Additional observations from a re-analysis of the deposited data

Results flagged for a closer look

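Of 18 groups of 5 mice (9 genes in each genotype), 3 held a mouse far from the other 4, where the gap to the nearest mouse took over 0.71 of the range of the group (Dixon's test). Chance flags about 1 in 20 groups of normally distributed values, a rate that need not hold for FPKM, which were used here without a log. Flags on a log scale were not tested. Hsd17b2 was at 8.43 FPKM in WT4, with the next WT mouse at 1.12 FPKM. Hsd17b7 was at 4.89 FPKM in TG3, with the next HSD17B1TG mouse at 1.63 FPKM. Hsd17b4 was at 20.1 FPKM in WT5, below the other WT mice, of which the lowest had 25.8 FPKM.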

How the results depend on the processing

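With all 10 mice, the number of members called was 0 in edgeR and under DESeq2, other normalizations, filters and thresholds, 1 (Hsd17b2) under voom, log2(FPKM + 1) and log2(FPKM + 0.1), which called 3.41% to 4.78% of all genes, and 2 (Hsd17b2 and Hsd17b11) under voom with quality weights, which called 10.3%, against 4.24% in edgeR. The same numbers passed the adjusted p alone. With 1 mouse left out, 0 to 1 members were called or passed it. The number of pathway genes called was 9 in edgeR, 17 under voom with quality weights, and 1 to 14 with 1 mouse left out. Over the whole table, 906 genes were called up and 666 down under DESeq2, and 1083 and 665 under voom with quality weights, against 367 and 354 in edgeR. With 1 mouse left out, 65 (without TG5) to 1554 (without WT4) genes were called, against 721. On library totals alone the median log2 fold change of all genes moved to -0.17, and 286 genes were called up and 494 down.

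Hsd17b2 kept its direction under all 21 alternatives, with adjusted p from 0.00659 to 0.241, as did Hsd17b4 and Hsd17b10. On library totals alone the log2 fold change of Hsd17b1 was -0.077. With 1 mouse left out, that of Hsd17b1 lay between -0.088 and 0.30, that of Hsd17b7 between -0.76 and 0.10, that of Hsd17b12 between -0.055 and 0.38 and that of Hsd17b14 between -0.49 and 0.27, and none of these passed the threshold. Per summed epithelial markers, chosen after seeing the data, Hsd17b1 differed by -1.05, Hsd17b12 by -1.08 and Hsd17b11 by -0.19 on the log2 scale, since that division lowers every gene alike by 1.197. The cause of the other changes was not tested. At counts of 0 to 36 per mouse, depth limits Hsd17b1, Hsd17b13 and Hsd17b14. No paired analysis was possible because the sample titles of the groups share 1 number only, that of TG1 and WT4, whose meaning the labels do not give.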
